A study of Homo sapiens with 4 samples.

Results

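The hypoxia response and glycolysis genes were followed across 4 cultures of MDA-MB-231, a triple-negative, mesenchymal-like human breast carcinoma line. The cultures were a stable and a transient knockdown of the transcriptional repressor ZEB2, each with its own control. The genes were chosen by name as a list of 47. It holds subunits of the hypoxia-inducible factor (HIF) and its oxygen sensors, HIF targets, glycolytic enzymes, and genes of glucose entry and lactate handling. Of the 47, 44 had a probe set carrying their symbol alone, and all 44 also passed the filter on low values, among 15082 of 19775 genes that did. CA9, SLC16A1 and SLC16A3 had no probe set named in the annotation used and were not analysed here. Each gene is represented by its brightest probe set.

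Total RNA was measured on Affymetrix U133 Plus 2 arrays. The authors deposited log2 values summarised with RMA, which corrects background, normalises the arrays to a shared distribution and summarises probes. The first pair held cells stably transduced with the lentiviral vector pLVTH as control, and cells stably transduced with a short hairpin RNA against ZEB2. The second pair held cells transfected with a 20 nM siRNA pool against luciferase (absent from human cells) and cells transfected with a 20 nM siRNA pool against ZEB2. The transfected cells are called the transient pair here and the transduced ones the stable pair. Transfection lasted 24 hours, followed by a wash and 48 hours of culture before harvest, while no time after transduction is given for the stable cells. Labelling started from 2 µg of RNA in the stable pair and from 100 ng in the transient pair, so method, RNA input and any array batch cannot be told apart between the pairs. All 4 groups were grown in the same medium with serum, and no group was labelled as exposed to low oxygen. The labels do not say how many clones or integrations the stable lines came from.

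Each group had 1 array, so differences carry no replicate error and no test within a pair exists. They are given as knockdown minus control on the log2 scale, where 1 is 2-fold, and the number of arrays limits their precision. ZEB2 read 6.12 in the vector control against 3.52 in its knockdown, and 6.56 in the luciferase control against 3.51 in its knockdown, lower in both as labelled. Both knockdown values lay under the filter level of 4.77, and only the brightest of the 5 ZEB2 probe sets is given. The MDA-MB-231 markers VIM, CD44, EGFR, CAV1, AXL, MSN and ANXA1 lay between 10.59 and 14.12 on all arrays. The control arrays themselves differed at 2-fold in 2377 genes, 15.8% of those kept, against 4.47% in the stable pair and 0.172% in the transient pair. Some markers of other cell types moved with that gap. Among 7 luminal epithelial markers, CDH1 lay under the filter level of 4.77 in the stable pair, at 3.54 and 4.26, and at 7.37 and 8.35 in the transient pair, and the summed linear level of the 7 ranged from 3320 to 3600 and from 3435 to 4163. Over the level were 4, 4, 5 and 5 of the 7, with PGR and FOXA1 under it on every array. Of 4 fibroblast markers, 3, 4, 3 and 3 were over it, with a summed level of the list between 293.2 and 711. LUM read 2.92, 6.80, 8.99 and 8.71, higher in the luciferase control than in the vector control. The rest of that list went the other way between the controls: COL1A1 by -0.60, COL1A2 by -0.49 and DCN by -0.14. Of 4 blood cell markers, 2 were measured, PTPRC at or under 3.87 on every array and CD3E between 5.17 and 5.52. The part of these markers in the results was not tested, and in bulk RNA a change in the share of cells cannot be told apart from a change in RNA per cell.

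HIF is a dimer of an oxygen-regulated alpha subunit and the stable subunit ARNT. When oxygen is present, prolyl hydroxylases of the EGLN family mark the alpha subunit for the ubiquitin ligase that contains VHL, which destroys it, so HIF activity is set mostly at the protein level. When oxygen falls, HIF binds hypoxia response elements with the core RCGTG and induces genes for angiogenesis, collagen modification, mitophagy, glucose uptake and glycolysis. Many carcinomas keep high glycolysis even with oxygen, and MDA-MB-231 is known for it.

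Between the knockdowns and their controls the members, like all genes kept, differed more often in the stable pair than in the transient pair. In the stable pair 5 of 44 members differed at 2-fold, 11.4% of them beside 4.47% of all genes kept. Those higher were ADM, EPAS1, PDK1 and NDRG1 (2.39% of all genes were 2-fold higher), and ANGPTL4 was lower (2.08%). ADM, NDRG1 and ANGPTL4 are targets outside glycolysis, EPAS1 is a HIF subunit and PDK1 acts on pyruvate use. In the transient pair 0 of 44 did, beside 0.172% of all genes. Between the controls 16 of 44 did, 36.4% beside 15.8%, with 14 higher (10.8% of all genes) and 2 lower (4.99%) in the luciferase control. The stable pair and the comparison of controls share the vector control array, so a value that was low on that array alone raises both. At 1.5-fold, 11 members differed in the stable pair (25% beside 14.7% of all genes), 2 in the transient pair (4.55% beside 2.2%) and 20 between the controls (45.5% beside 34%). The 2 were CA12 and ALDOC, both lower (1.51% of all genes). At 3-fold the counts were 2, 0 and 7, beside 1.4%, 0.0265% and 5.66% of all genes.

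**Figure D1:**
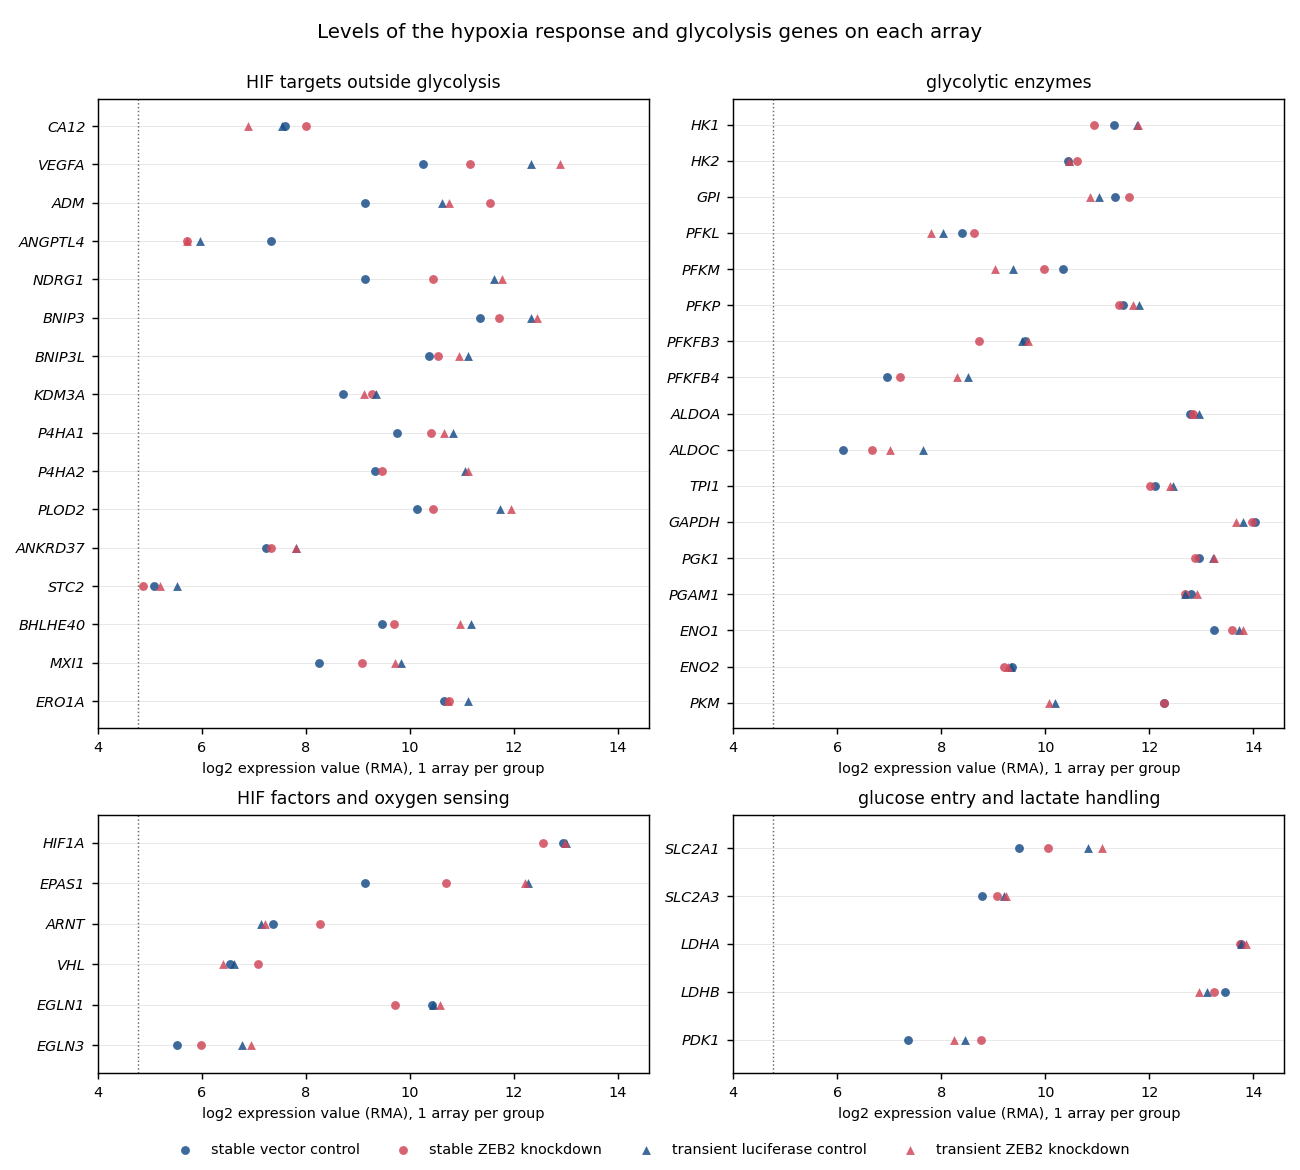
Log2 expression value (RMA) of each of the 44 measured members on the 4 arrays, by role, with circles for the stable pair, triangles for the transient pair, blue for controls and red for ZEB2 knockdowns; the dotted line is the filter level of 4.77. Among HIF targets the blue circle of the vector control lies to the left of the other 3 arrays in 13 of 16 genes. Among glycolytic enzymes the arrays lie close together for ALDOA, GAPDH and PGK1. PKM splits by method, at 12.29 and 12.28 in the stable pair and 10.18 and 10.07 in the transient pair.

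To show the hypoxia response core in the members' promoters, these were read from the RefSeq table of GRCh38.p14, 250 bases before to 50 after a start, for 41 of the 47 genes. VHL, VEGFA, NDRG1, BNIP3L, SLC2A3 and SLC16A1 had no entry. The core was searched as ACGTG and GCGTG on both strands, so that CACGTG, its own reverse complement, counts as overlapping matches of ACGTG. At least 1 start held a match in 37 of the 41 genes (90.2%), against 66.5% of 11984 genes kept that had an entry. For ACGTG alone the counts were 24 genes (58.5%) and 30.6%. Genes with more annotated starts have more chances to match, and counted by start the shares were 69% of 71 starts and 57.9%. HIF targets outside glycolysis held a match in 13 of 14 genes (92.9%) and glycolytic enzymes in 16 of 17 (94.1%). By start these were 15 of 17 (88.2%) and 23 of 37 (62.2%), so the enzymes lay near the 57.9% of all genes kept. HIF factors and sensors held a match in 3 of 5 genes (60%), and glucose entry and lactate handling in 5 of 5 (100%). Printed here are the members at 2-fold in the stable pair that have an entry, followed by LDHA and PGK1, which carry 4 separate matches each and lay near 0 in both pairs by their brightest probe sets. Capitals mark the matches, and each is written 5′ to 3′ along the gene's strand.
ADM promoter, chr11:10304823-10305122, plus strand: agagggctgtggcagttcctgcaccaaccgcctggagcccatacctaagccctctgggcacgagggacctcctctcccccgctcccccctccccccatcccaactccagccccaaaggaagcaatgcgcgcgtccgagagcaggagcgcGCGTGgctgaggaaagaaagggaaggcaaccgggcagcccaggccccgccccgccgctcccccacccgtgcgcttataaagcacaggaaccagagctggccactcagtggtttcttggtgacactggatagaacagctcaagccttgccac
PDK1 promoter, chr2:172555840-172556139, plus strand: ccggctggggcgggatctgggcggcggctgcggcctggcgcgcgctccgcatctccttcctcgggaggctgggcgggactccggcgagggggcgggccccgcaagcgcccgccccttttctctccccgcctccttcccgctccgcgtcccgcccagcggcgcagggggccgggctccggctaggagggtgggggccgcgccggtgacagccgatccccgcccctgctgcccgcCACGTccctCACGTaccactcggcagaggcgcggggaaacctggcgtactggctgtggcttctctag
EPAS1 promoter, chr2:46297157-46297456, plus strand: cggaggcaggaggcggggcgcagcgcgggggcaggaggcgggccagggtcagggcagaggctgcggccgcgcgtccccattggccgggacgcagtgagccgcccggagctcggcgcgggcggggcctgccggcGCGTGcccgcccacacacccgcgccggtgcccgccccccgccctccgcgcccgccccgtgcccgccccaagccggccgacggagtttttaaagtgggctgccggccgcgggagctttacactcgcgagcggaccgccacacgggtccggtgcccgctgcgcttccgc
ANGPTL4 promoter, chr19:8363905-8364204, plus strand: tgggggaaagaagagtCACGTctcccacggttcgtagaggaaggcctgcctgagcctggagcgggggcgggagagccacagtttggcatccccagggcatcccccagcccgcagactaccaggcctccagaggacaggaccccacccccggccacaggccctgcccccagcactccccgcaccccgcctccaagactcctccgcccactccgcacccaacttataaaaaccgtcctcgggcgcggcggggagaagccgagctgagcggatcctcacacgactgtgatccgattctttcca
LDHA promoter, chr11:18394313-18394612, plus strand: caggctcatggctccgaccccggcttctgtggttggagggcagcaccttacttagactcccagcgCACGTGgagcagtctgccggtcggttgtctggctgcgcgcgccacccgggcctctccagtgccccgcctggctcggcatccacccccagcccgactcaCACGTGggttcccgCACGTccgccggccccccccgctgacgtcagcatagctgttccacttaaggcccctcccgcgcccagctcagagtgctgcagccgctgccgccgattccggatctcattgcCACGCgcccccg
PGK1 promoter, chrX:78103998-78104297, plus strand: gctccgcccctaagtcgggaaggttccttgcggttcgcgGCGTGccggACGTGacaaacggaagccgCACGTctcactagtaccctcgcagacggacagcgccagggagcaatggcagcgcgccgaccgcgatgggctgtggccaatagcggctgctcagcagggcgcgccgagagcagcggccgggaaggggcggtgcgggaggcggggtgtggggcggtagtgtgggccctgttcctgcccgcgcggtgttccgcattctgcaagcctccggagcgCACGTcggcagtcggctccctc
ADM and EPAS1 each hold 1 match, beginning 101 and 117 bases before the start. PDK1 holds 2, beginning 17 and 8 bases before this start, and none at its other start. In ANGPTL4 the match lies 234 bases before the start. A match is a description of these letters and not evidence of binding.

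Messages of the HIF subunits and sensors differed in both directions in the stable pair and little in the transient pair. Of the 6 genes, 4 were higher (66.7% beside 46.6% of all genes kept) and 2 lower in the stable knockdown, with a median of 0.50 beside -0.02. The median was 0.24 without probe sets that may cross-hybridise (suffix _x_at), since ARNT then takes another probe set. In the transient pair the 6 differences lay between -0.21 and 0.16.

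HIF1A, the alpha subunit of the general response, read 12.94 in the vector control, 12.57 in the stable knockdown, 13.00 in the luciferase control and 12.99 in the transient knockdown. It was bright on every array and 1.29-fold lower in the stable knockdown. EPAS1, the alpha subunit HIF-2, read 9.13, 10.68, 12.26 and 12.22 in the same order. The vector control was lowest and the transient arrays were highest, with a difference of 1.56 in the stable pair, -0.04 in the transient pair and 3.13 between the controls. A second EPAS1 probe set, at 5.22, 7.09, 5.48 and 5.37, also differed in the stable pair, by 1.88, but by only 0.26 between the controls. The higher EPAS1 value of the stable knockdown therefore held in both probe sets, while the gap between controls rested on the brighter one.

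EGLN1, the main prolyl hydroxylase, read 10.42, 9.71, 10.44 and 10.57. The stable knockdown was lowest, 1.64-fold below its control, and its 3 probe sets over the filter level gave differences from -0.71 to -0.41 in that pair. Between the controls they gave -0.54 to 0.02, so in the dimmer ones the vector control stood above the other arrays. EGLN3, a hydroxylase that is itself induced by HIF, read 5.52, 5.98, 6.77 and 6.93. It did not follow EGLN1, being lowest in the vector control and 2.39-fold above that in the luciferase control. ARNT, the shared partner, read 7.36, 8.26, 7.13 and 7.20, highest in the stable knockdown. Its 5 probe sets over the filter level disagreed, from -0.43 to 0.90 in the stable pair and from -1.15 to 0.07 in the transient pair, so the sign of its difference depended on the probe set. VHL read 6.54, 7.07, 6.61 and 6.40, with differences of 0.53 and -0.21.

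HIF targets outside glycolysis were mostly lowest in the vector control. That array held the lowest value in 13 of 16 measured targets (81.2%), beside 30.9% of all genes kept, and lay farthest from the other arrays in 13 (81.2% beside 38.7%). In the stable pair 14 targets were higher (87.5% beside 46.6% of all genes) and 2 lower, with a median of 0.34 beside -0.02. In the transient pair the split was 7 higher (43.8% beside 46.0% of all genes) to 9 lower. The median there was -0.14 beside -0.02, and it came to -0.03 when a gene's probe sets were averaged. Between the controls 14 were higher (87.5% beside 54.0% of all genes) and 2 lower in the luciferase control, with a median of 1.03 beside 0.06. In 12 of the 16 (75% beside 45.9% of all genes) the stable knockdown lay between the controls. Set against the luciferase control instead, a comparison added after the values were seen, the stable knockdown had a median of -0.60 over these targets, and those 12 turned from higher to lower, among them VEGFA (-1.17), P4HA2 (-1.60) and NDRG1 (-1.18). Over all members 25 of 44 changed sign in either direction (56.8% beside 45.9% of all genes). Of these, PFKM, GAPDH, PGAM1, PKM and LDHB turned from lower to higher and the rest from higher to lower, EPAS1 (-1.58) included. The second EPAS1 probe set did not, at 7.09 in the stable knockdown against 5.48 in the luciferase control. No median over all genes kept was taken for this comparison. In the members that changed sign, read by their brightest probe sets, the direction of the stable knockdown thus depended on which control was used.

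**Figure D2:**
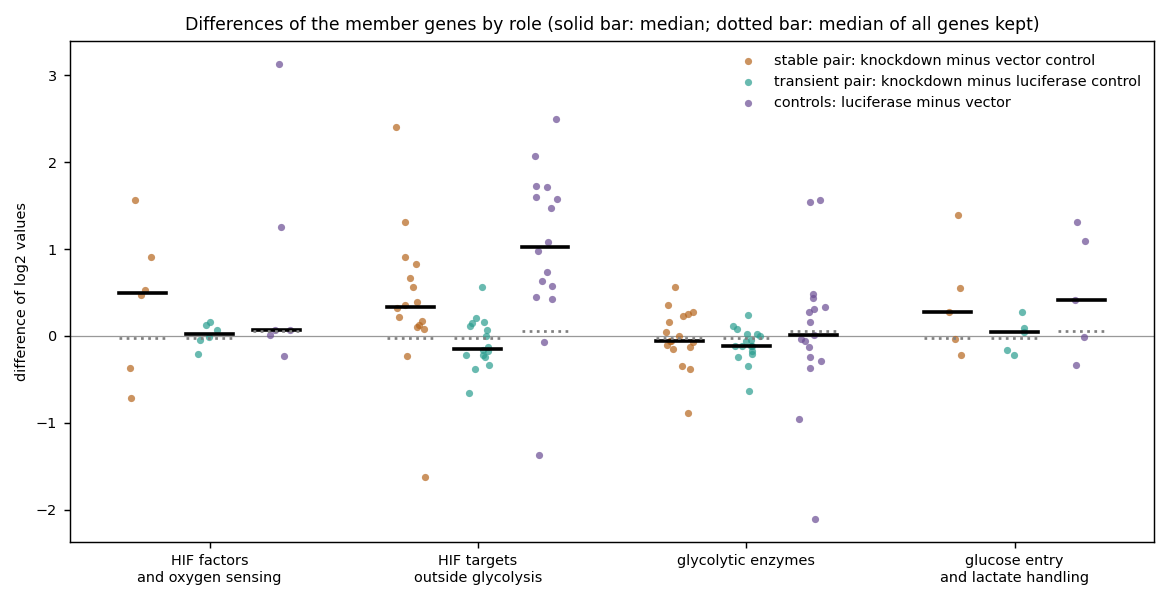
Difference of log2 values for every measured member, by role and by comparison; points are genes, solid bars the median of the role and dotted bars the median of all genes kept. The HIF targets outside glycolysis sit at a median of 1.03 in the luciferase control minus vector control, 0.34 in the stable pair and -0.14 in the transient pair, and the glycolytic enzymes near 0 in all 3.

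Among secreted and signalling targets, ADM, which encodes the vasodilator peptide adrenomedullin, read 9.13, 11.53, 10.61 and 10.76. The vector control was lowest and the stable knockdown highest, 5.27-fold apart, the largest difference of the members in that pair. Set against the luciferase control, ADM stayed higher in the stable knockdown, by 1.90-fold, as did CA12 among these targets. VEGFA, the angiogenic growth factor, read 10.24, 11.15, 12.32 and 12.88. Both knockdowns exceeded their controls, by 0.90 and 0.57, and all 4 probe sets were higher in both pairs, by 0.71 to 1.38 and by 0.11 to 0.57. The gap between the controls was 4.21-fold in the brightest probe set and ran from 0.74 to 2.07 on the log2 scale over the 4. In the brighter ones the luciferase control exceeded the stable knockdown, and in 2 dimmer ones it did not. ANGPTL4, a secreted inhibitor of lipoprotein lipase, read 7.33, 5.71, 5.96 and 5.72. The vector control was highest, by 3.08-fold over its knockdown, and its second probe set gave -1.52. STC2, a secreted glycoprotein and the other target that was lower in the stable knockdown, lay near the filter level at 5.08, 4.86, 5.51 and 5.18.

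The stress-response gene NDRG1 read 9.13, 10.43, 11.62 and 11.77, in the order vector control, stable knockdown, then both transient arrays. It was 2.47-fold higher in the stable knockdown and 5.62-fold higher in the luciferase control than in the vector control. MXI1, an antagonist of MYC, read 8.25, 9.08, 9.83 and 9.70, the same order with 1.78-fold and 2.98-fold. BHLHE40, a circadian and hypoxic repressor, read 9.46, 9.68, 11.18 and 10.96. The stable arrays lay within 0.22 of each other, and the luciferase control was 3.29-fold higher, by 0.35 in the second probe set. KDM3A, a histone demethylase, read 8.71, 9.27, 9.34 and 9.12, lowest in the vector control. ANKRD37 differed by 0.10 in the stable pair and by 0.005 in the transient pair.

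The collagen-modifying enzymes separated the methods more than the knockdowns. The prolyl 4-hydroxylase subunit P4HA1 read 9.74, 10.40, 10.82 and 10.65, and its paralog P4HA2 read 9.33, 9.46, 11.05 and 11.12. P4HA1 was 1.58-fold higher in the stable knockdown, P4HA2 1.09-fold, and neither differed by more than 0.16 in the transient pair. PLOD2, the lysyl hydroxylase of collagen telopeptides, read 10.13, 10.45, 11.73 and 11.94. For P4HA2 and PLOD2 both transient arrays lay above both stable arrays, 3.31-fold and 3.03-fold between the controls. On the log2 scale the second P4HA2 probe set gave 0.56 there and the second PLOD2 probe set 1.88. ERO1A, an oxidase of the endoplasmic reticulum, differed by 0.08 and -0.38 in its brightest probe set. Over its 3 probe sets the differences ran from 0.08 to 0.47 in the stable pair and from -0.38 to -0.0007 in the transient pair.

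The mitophagy receptors BNIP3 and BNIP3L had smaller gaps. BNIP3 read 11.35, 11.70, 12.33 and 12.44, 1.97-fold between the controls, just short of 2-fold. BNIP3L read 10.37, 10.54, 11.11 and 10.94, but its other probe set was lower in the luciferase control, by 0.32, so its direction there is unsettled. CA12, a membrane carbonic anhydrase, read 7.60, 7.99, 7.53 and 6.88. It was lowest in the transient knockdown, 1.57-fold below its control, and its 7 probe sets over the filter level ranged from -0.75 to 0.21 in that pair.

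**Figure D3:**
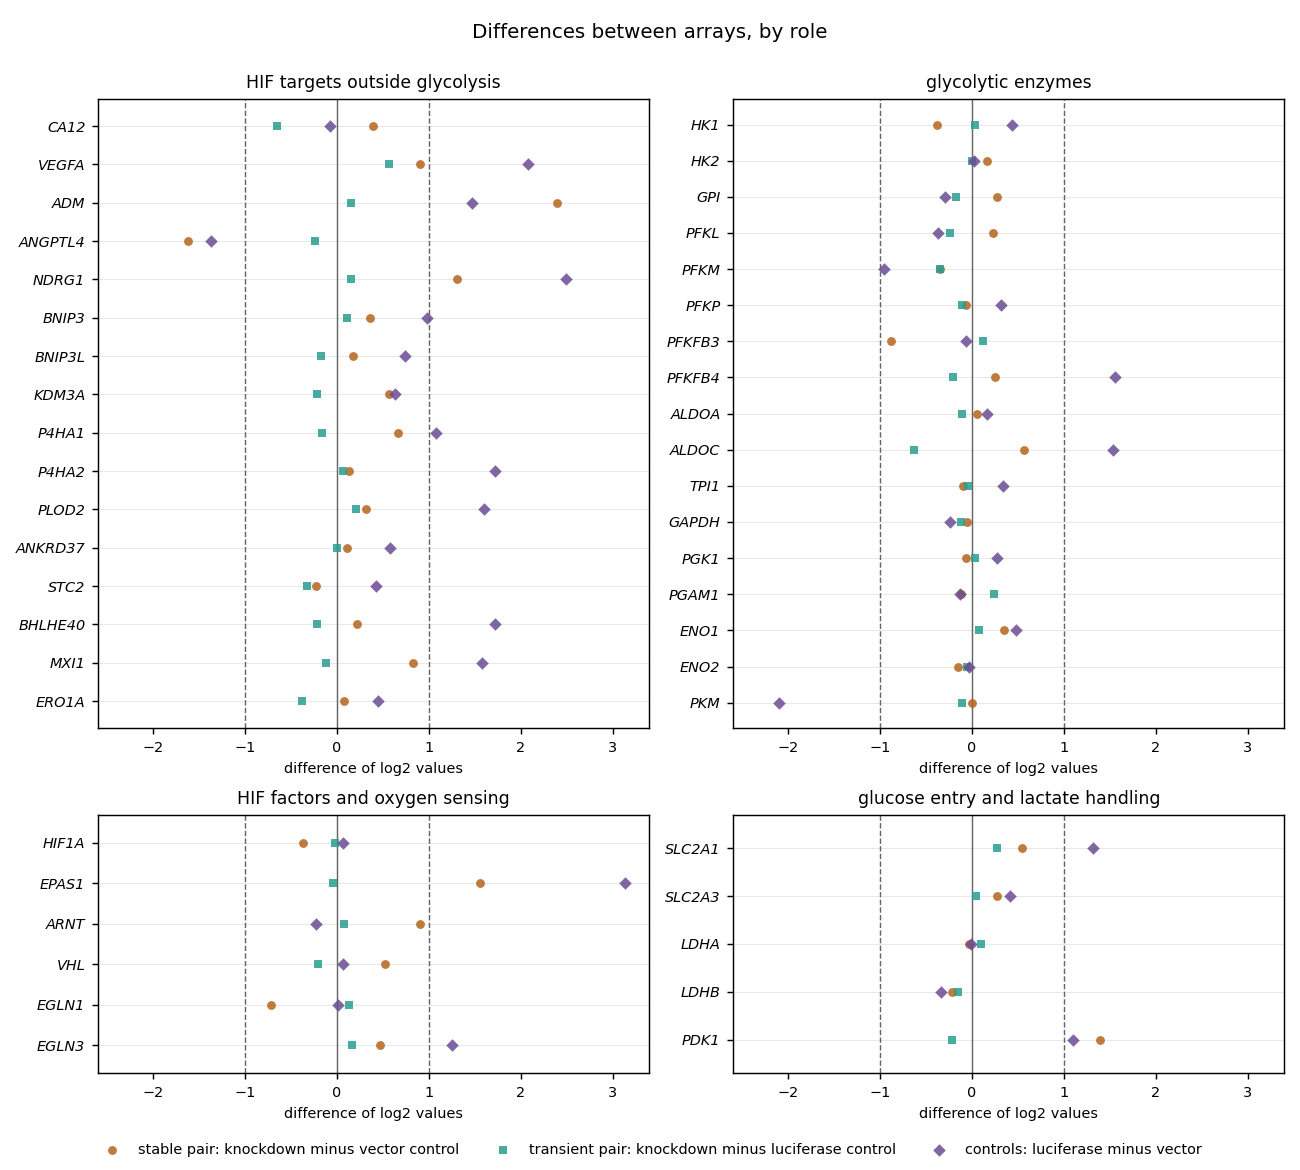
Difference of log2 values for each measured member, by role: circles the stable knockdown minus its control, squares the transient knockdown minus its control, diamonds the luciferase control minus the vector control; dashed lines mark 2-fold. The squares stay within 2-fold for all 44 genes (0.172% of all genes kept pass it in that pair). Of the 16 diamonds past 2-fold, 9 are HIF targets outside glycolysis.

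Glycolytic enzymes as a group lay near 0 in both pairs. Of 17, 7 were higher (41.2% beside 46.6% of all genes kept) and 10 lower in the stable knockdown. Their median was -0.06 beside -0.02 for all genes kept, and 11 (64.7% beside 53.9%) differed by less than 0.25. In the transient pair 5 enzymes were higher (29.4% beside 46.0%) and 12 lower. Their median was -0.11 beside -0.02, and 15 (88.2% beside 75.5%) differed by less than 0.25. None of the 17 reached 2-fold in either pair by its brightest probe set. Of all genes kept only 4.47% and 0.172% did, so a count of 0 among 17 lies near those shares. Between the controls the median was 0.02 beside 0.06, with 3 of 17 genes past 2-fold (17.6%, beside 15.8% of all genes).

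In the upper part of the pathway, which spends ATP, the hexokinases HK1 and HK2 differed by -0.38 and 0.16 in the stable pair and by 0.03 and -0.0007 in the transient pair. GPI, the phosphoglucose isomerase, differed by 0.27 and -0.17. Of the phosphofructokinase genes, PFKM, the muscle form, read 10.33, 9.99, 9.37 and 9.03. It was lower in both knockdowns, by 0.35 in each pair, and lowest on the transient arrays. PFKL differed by 0.23 and -0.24 and PFKP by -0.07 and -0.11. PFKFB3, which makes the allosteric activator fructose 2,6-bisphosphate, read 9.61, 8.73, 9.55 and 9.66. The stable knockdown alone was low, by 1.84-fold, the largest difference among the enzymes in that pair, and the gene has 1 probe set. Its HIF-induced relative PFKFB4 read 6.95, 7.20, 8.51 and 8.30, 2.95-fold apart between the controls with the luciferase control above. The second PFKFB4 probe set gave -0.22 there.

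The aldolase genes split by isoform. ALDOA, the abundant form, read 12.78, 12.83, 12.95 and 12.84, all within 0.17. ALDOC, the brain form and a HIF target, read 6.11, 6.68, 7.65 and 7.02. It was lowest in the vector control and highest in the luciferase control, with 0.56 in the stable pair and -0.63 in the transient pair. TPI1, which interconverts the triose phosphates, differed by -0.10 and -0.05.

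In the lower part, which yields ATP, GAPDH read 14.04, 13.98, 13.80 and 13.68, and PGK1 read 12.95, 12.89, 13.23 and 13.25. The dehydrogenase GAPDH, often used as a reference gene, differed by -0.11 to -0.05 in the stable pair and -0.14 to -0.009 in the transient pair over its 6 probe sets. PGK1, a kinase that makes ATP, differed by -0.06 and 0.03 in its brightest probe set, while the dimmest of its 6 gave 1.02 and -0.59. The mutase gene PGAM1 differed by -0.12 and 0.24, and the neuronal enolase gene ENO2 by -0.15 and -0.06. ENO1, the main enolase, read 13.25, 13.60, 13.73 and 13.80, lowest in the vector control by 1.28-fold against its knockdown. All 4 ENO1 probe sets were higher in the stable knockdown, by 0.27 to 0.76, but between the controls they ran from -1.35 to 0.48. Signals at this end of the scale can be compressed, and GAPDH, PGK1 and other glycolytic genes have processed pseudogenes that a probe set may also read.

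PKM, the last enzyme of the pathway, read 12.29, 12.28, 10.18 and 10.07. Each knockdown lay within 0.11 of its own control, yet the luciferase control lay 4.30-fold below the vector control. The second PKM probe set, at 7.10, 6.47, 6.68 and 6.69, put the luciferase control only 0.42 below the vector control and the stable knockdown 0.63 below it. The gap between the controls thus differed in size between the PKM probe sets.

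**Figure D4:**
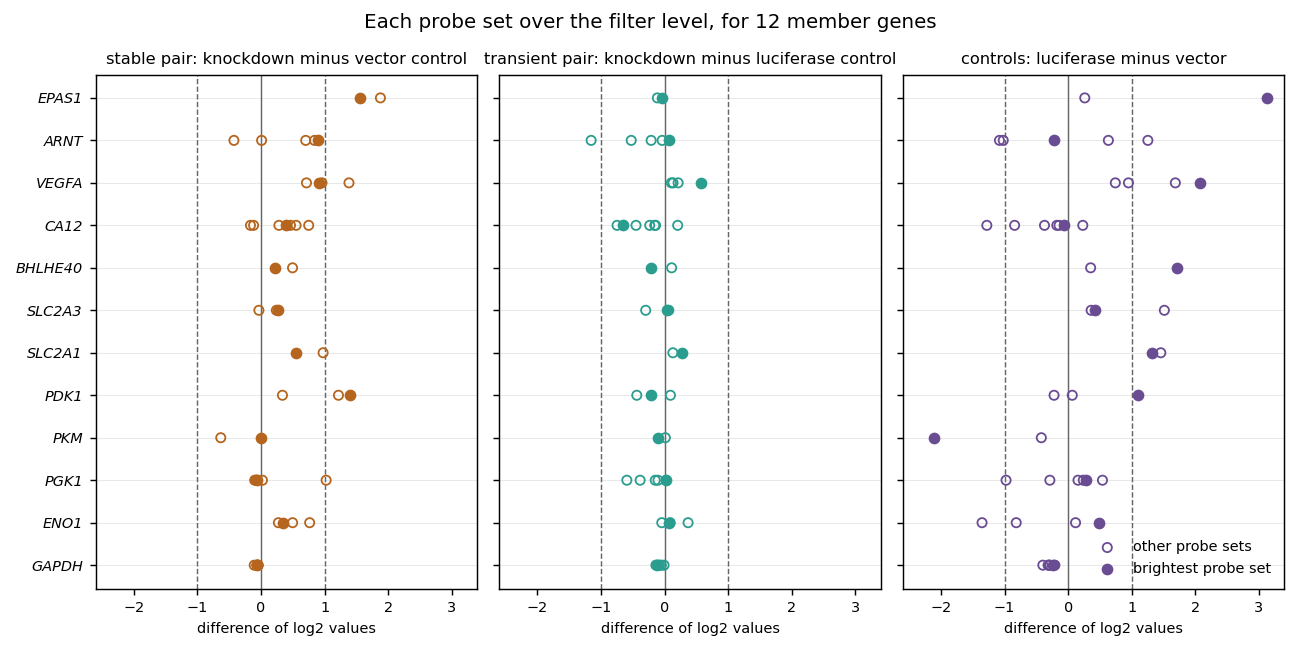
Differences of log2 values for each probe set over the filter level in 12 members, filled for the brightest probe set and open for the others, with dashed lines at 2-fold. VEGFA and GAPDH probe sets lie on one side of 0 in all 3 comparisons, whereas ARNT, CA12 and PGK1 probe sets lie on both sides.

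Of the members, 27 had 2 or more probe sets over the filter level. All of a gene's probe sets had the same sign in 19 of them in the stable pair, in 10 in the transient pair and in 17 between the controls. The same count was not taken over all genes, so these counts do not show whether the members agree better or worse than other genes.

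Glucose entry and lactate handling was represented by 5 measured genes of 7. SLC2A1, the glucose transporter GLUT1, read 9.50, 10.05, 10.82 and 11.09. The vector control was lowest and the transient arrays highest, with 0.55 and 0.27 in the pairs, and its second probe set gave 0.98 and 0.13. The neuronal-type transporter gene SLC2A3 differed by 0.27 and 0.04 in its brightest probe set, which is of the kind that may cross-hybridise. Its 3 probe sets disagreed in sign in both pairs, from -0.03 to 0.27 and from -0.30 to 0.07. Between the controls they gave 0.36 to 1.51. LDHA, the lactate dehydrogenase subunit that favours lactate production, read 13.77, 13.74, 13.76 and 13.86. The 4 arrays were nearly level, with -0.03 and 0.09 in the pairs. LDHB, the subunit of oxidative tissues, read 13.45, 13.24, 13.12 and 12.96, lower in both knockdowns, by 0.21 and 0.16, and its second probe set gave -0.21 and -0.14. Both LDHB probe sets are of the kind that may cross-hybridise.

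PDK1, the kinase that inhibits pyruvate dehydrogenase and so keeps pyruvate from the mitochondria, read 7.37, 8.76, 8.46 and 8.24. The vector control was lowest, 2.62-fold below its knockdown, and the other 3 arrays lay between 8.24 and 8.76. Its 3 probe sets over the filter level gave 0.34 to 1.39 in the stable pair, but -0.22 to 1.09 between the controls. Over the 5 genes the median was 0.27 in the stable pair, 0.04 in the transient pair and 0.42 between the controls.

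Limma was used to test for an effect shared by both knockdowns, in a fit to the 4 arrays that takes the method as a block. It leaves 1 residual degree of freedom, so its error comes from the difference between the methods and from the spread borrowed from all genes. Among the members VEGFA gave limma's smallest unadjusted p, 0.0106, at a mean difference of 0.74 ± 0.16 (SE). With Benjamini-Hochberg adjustment across the 15082 genes, limma's lowest adjusted p for a member was 0.971, and 0 members passed, as did 0% of all genes. At an unadjusted p of 0.05 limma gave 1 of 44 members, beside 2.55% of all genes. With 1 residual degree of freedom and the spread of these arrays the fit has no power to call even large changes, so the absence of calls carries no information about the members.

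Further genes of the same pathways, listed by role, were read beside the members. These lists were chosen with earlier results of these data known, so their counts are no independent support for the members. Of 28 further HIF targets kept of 30, 20 were higher (71.4% beside 46.6% of all genes) and 8 lower in the stable pair. Their median there was 0.31 beside -0.02. In the transient pair 9 were higher (32.1% beside 46.0%) and 19 lower, with a median of -0.03 beside -0.02. Of them 6 were 2-fold higher in the stable pair (21.4% beside 2.39% of all genes) and 0 lower. DDIT4, an inhibitor of mTORC1, read 8.40, 10.83, 10.95 and 10.34, and the collagen cross-linking oxidase gene LOX read 7.87, 10.23, 9.76 and 9.23. In both the vector control was lowest, by 2.43 and 2.36 against its knockdown. CXCR4, the chemokine receptor, read 3.26 there, under the filter level, against 10.53, 10.42 and 10.40, so its difference of 7.27 starts from the dim end of the scale. EFNA1 (1.71), CCNG2 (1.46) and TMEM45A (1.24) completed the 6. RORA, at 3.35 and 3.78, and PPFIA4, at 3.80 and 4.39, lay under the filter level on both stable arrays. CXCR4, RORA and PPFIA4 passed the filter only through arrays where they read higher, and all count among the targets higher in the stable pair. Between the controls 24 of the 28 were higher in the luciferase control (85.7% beside 54.0% of all genes). Their median there was 0.62 beside 0.06 for all genes. The 11 further regulators kept of 12 stayed within 2-fold in both pairs, with medians of -0.003 and -0.10. So did most genes, since only 4.47% and 0.172% of all genes kept reached 2-fold. The 2 with the largest mean difference were ELOC, a subunit of the VHL ligase, at -0.58 and 0.06, and SIAH2, a ligase for EGLN proteins, at -0.26 and -0.26.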

How the data were processed

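Expression values of 4 arrays, 1 per group, were used as the authors deposited them: RMA log2 values, for which the submitters' processing notes name the affy package, with versions not given in the sources used here. Median log2 values of the arrays were 5.34 to 5.37. Of 54675 probe sets, 41097 were annotated with 1 gene symbol, 1801 with several and 11777 with none. Of the first, 41043 matched RefSeq gene identifiers and 0 symbols were updated. A gene took its brightest single-symbol probe set by mean over the arrays, and was kept when its highest value reached the 40th percentile of all values, 4.77. Differences were counted at 2-fold. The common effect was fitted with limma 3.58.1 in R 4.3.3 (lmFit, eBayes with trend, 2-sided, method as block, Benjamini-Hochberg at 0.05) and tested on simulated data. No batch or scan information was used, so pair and batch cannot be told apart. Named in full were members at 1.5-fold in any comparison and the highest and lowest mean difference of each role, and of the other lists those at 2-fold in a pair or else the 2 with the largest mean difference. The sequences printed and the genes set beside them as examples were chosen after values were seen. Members and lists were chosen with earlier results of these data known. Alternatives were the mean of probe sets, no cross-hybridising probe sets, other filters, folds and scalings, and other limma settings. Figures used matplotlib 3.10.9. The columns of other series numbered 0.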

Additional observations from a re-analysis of the deposited data

Results flagged for a closer look

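ALDOC was the 1 member of 44 whose pairs differed in opposite directions, each by more than the standard deviation of that pair over all genes kept (0.499 in the stable pair and 0.235 in the transient pair). It was higher by 0.56 in the stable pair and differed by -0.63 in the transient pair. Of all genes kept, 494 (3.28%) met the same condition. The difference between the pairs was not tested, since each has 1 array per group, and ALDOC has 1 probe set, so no second reading of it exists here.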

How the results depend on the processing

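With 1 array per group no replicate could be left out. The labels give no replicate numbers, and the only pairing was by method, which limma used as its block. It called 0 members with or without that block and under each other setting, which shows no stability, since at the spread of these arrays it has no power to call even large changes. Counts at 2-fold of 5 (stable pair), 0 (transient pair) and 16 (controls) became 11, 2 and 20 at 1.5-fold, and 2, 0 and 7 at 3-fold. They stayed within 1.5 times under every other filter, scaling and probe set rule. Against the luciferase control, a comparison chosen after seeing the data, the stable knockdown had 9 members at 2-fold. Its medians became -0.58 for HIF factors and sensors, -0.60 for HIF targets and -0.024 for glucose entry and lactate handling. That comparison crosses method and RNA input. No count or median over all genes kept was taken for it, so the 9 and these medians have no background to be read against. Of the members at 2-fold in the stable pair, EPAS1 (-1.58, in its brightest probe set only) and NDRG1 (-1.18) reversed. With the mean of probe sets, medians moved to 0.35 for HIF factors (stable pair), to -0.034 and 0.67 for HIF targets (transient pair and controls), and to 0.16, -0.063 and 0.31 for glucose entry and lactate handling (stable pair, transient pair, controls). Without cross-hybridising probe sets they moved to 0.24 and 0.35 for HIF factors (stable pair and controls) and to -0.063 and 1.20 for glucose entry and lactate handling (transient pair and controls). Medians of the glycolytic enzymes moved by no more than 0.1 under any alternative, but lay close enough to 0 to change sign under some (0.012 in the stable pair with the mean of probe sets). Detection over background was not analysed here, and RMA compresses differences of dim genes such as STC2.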

Other observations

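Neighbouring routes of glucose carbon were read beside glycolysis. Of 6 pentose phosphate genes kept of 7, 5 were higher in the stable pair (83.3% beside 46.6% of all genes kept). In the transient pair 1 was (16.7% beside 46.0%). Their medians were 0.41 and -0.18 beside -0.02 and -0.02 for all genes kept. The transketolase gene TKT read 11.14 in the vector control, 12.11 in the stable knockdown, 11.86 in the luciferase control and 11.81 in the transient knockdown, and PGLS, the lactonase, read 9.52, 10.23, 10.78 and 10.60. In both the vector control was lowest. No gene of this list reached 2-fold in either pair, beside 4.47% and 0.172% of all genes kept.

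Of 14 genes of pyruvate use kept of 15, 7 were higher and 7 lower in the stable pair, with medians of 0.005 and 0.03 in the pairs. PCK2, the mitochondrial PEP carboxykinase, differed by 0.84 and -0.14, and PDHB, a pyruvate dehydrogenase subunit, by 0.51 and 0.14. Of 11 further glycolytic isoenzymes kept of 14, HKDC1, a hexokinase-like enzyme, was past 2-fold in the stable pair. It read 5.52, 7.30, 9.54 and 9.16, lowest in the vector control, with differences of 1.77 and -0.38.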
